A study of Mus musculus with 4 samples.

Results

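The genes examined here encode the cytosolic ribosomal proteins, the protein part of the ribosomes that translate messenger RNA in the cytoplasm. They were measured in primary myoblasts, the dividing muscle precursors, of Tet2 KO and WT mice. A gene was taken as a member when its symbol began with Rpl, Rps or Rplp followed by a digit, or was Rpsa. Symbols beginning with Rps6k, which name kinases of a ribosomal protein, and symbols marked as pseudogenes were left out. The rule found 89 members among the 24445 genes of the deposited table, 35 with small subunit symbols and 54 with large subunit symbols. The rule used no measured value.

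RNA was sequenced in 4 libraries, 2 from WT and 2 from Tet2 KO mice of the strain C57BL/6. The Tet2 KO mice lacked exon 3 of Tet2, an enzyme that oxidises methylated cytosine in DNA, in every cell, so the loss was not limited to muscle. In both groups satellite cells, the stem cells of muscle, had been sorted from hindlimb skeletal muscle as live cells that carried CD34 and Integrin a7. Cells with Sca1, with CD31 of the endothelium or with CD11b or CD45 of leukocytes had been gated out. They had then been kept on Type I collagen in a proliferating medium for at least 3 days, until they were MyoD+ myoblasts. The level of a gene was given as FPKM (fragments scaled to a transcript of 1 kilobase and to 1000000 mapped fragments), with 1 value for each group. This value is taken here to combine the 2 libraries of the group, and how that was done is not given in the sources used here. Values of single libraries were not analysed here. The levels below therefore carry no standard deviation, and their differences were not tested against the spread between libraries. Where a pair of levels is given, that of Tet2 KO comes first.

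A ribosome is built from ribosomal RNA and about as many different proteins as there are genes of this family, nearly all of which are present once in each ribosome. Dividing cells devote a large part of their transcription to these genes. Many of their transcripts start with a cytosine and a run of pyrimidines, the terminal oligopyrimidine tract, through which their translation follows nutrient and growth signals. Ribosomal protein genes are also known for their many processed pseudogenes, copies of the spliced transcript inserted elsewhere in the genome, with which sequencing reads can be shared.

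Some values of the whole data set bear on these genes. The level of Tet2 itself was 5.79 FPKM in Tet2 KO against 6.64 FPKM in WT, but this value covers exons outside the deletion and so does not check the deletion. In genes with 1 annotated transcript the low values rose in steps, and FPKM times length was 19.3 at the first step in Tet2 KO and 18.9 in WT. If that step is 1 fragment, each group value rested on about 51900000 fragments in Tet2 KO and 52800000 in WT. The myoblast markers Myod1, Myf5, Pax7, Des, Itga7 and Chrna1 were all expressed in both groups, at log2 ratios of Tet2 KO over WT between -0.27 and -0.02. All 16 genes of muscle differentiation examined were lower in Tet2 KO, 15 of them by more than 1.5-fold, with a median log2 ratio of -1.29; the exception was Tnnt1, at -0.53. The most abundant of them were Mylpf, a myosin light chain with 321 FPKM in Tet2 KO against 789.8 FPKM in WT, and the actin gene Acta1, with 207 and 629 FPKM.

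Markers of other cell types differed as well. All 15 leukocyte markers examined (Ptprc, Lyz2, Tyrobp, Fcer1g, Ctss, Cd52, Laptm5, Cd68, Csf1r, Itgam, Itgb2, Cd14, Cd53, Coro1a and Spi1) were higher in Tet2 KO by more than 1.5-fold. Their median log2 ratio was 1.60 and their summed level 525 FPKM against 134 FPKM. Ptprc and Itgam, which encode the sorting markers CD45 and CD11b, had 5.67 and 10.1 FPKM in Tet2 KO and 1.36 and 2.09 FPKM in WT. Each of the 8 fibroblast markers examined had a larger FPKM value in Tet2 KO than in WT. With 1 FPKM added to each value, Col1a2 and Dcn were past 1.5-fold. That addition understates the difference of low genes such as Pdgfra, with 1.91 and 1.06 FPKM, and Lum, with 0.456 and 0.199 FPKM. Of 6 endothelial markers, 5 were below a mean of 1 FPKM. The part of these other cells in the ribosomal protein values was not tested. In such bulk RNA, fewer cells of a type and less RNA per cell cannot be told apart.

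The start sites of the genes on which the results turn are shown first, since the pyrimidine start is the sequence feature this family is known for. The sequences were taken from RefSeq promoters of the build GRCm38.p6, which matched 68 members by symbol, with 80 start sites. Each line holds 30 bases on the strand of the gene, of which the last 15 begin with the annotated start base. Capitals mark a cytosine within 5 bases of the start together with the at least 4 pyrimidines that directly follow it. The first pair are members with the largest difference between the groups, Rps18 at chr17:33955651-33955680 on the minus strand and Rps2 at chr17:24720048-24720077 on the plus strand.
Rps18: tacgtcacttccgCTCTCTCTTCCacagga
Rps2: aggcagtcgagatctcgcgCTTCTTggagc

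The next 3 are the member with the lowest log2 ratio, Rpl35a, and members whose levels were nearly the same in both groups, Rps6 and Rpl7a. Of the 3 starts of Rpl35a in the table, the one shown holds such a run and the other 2 do not. The sequences lie at chr16:33056467-33056496 on the plus strand, chr4:86857353-86857382 on the minus strand and chr2:26910792-26910821 on the plus strand.
Rpl35a: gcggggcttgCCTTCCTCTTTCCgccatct
Rps6: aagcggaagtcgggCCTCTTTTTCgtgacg
Rpl7a: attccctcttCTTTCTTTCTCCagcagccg

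The last pair are starts without such a run, that of Rps3a1 at chr3:86142654-86142683 on the minus strand and that of Rpl3l, the muscle paralog of Rpl3, at chr17:24727811-24727840 on the plus strand.
Rps3a1: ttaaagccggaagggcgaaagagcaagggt
Rpl3l: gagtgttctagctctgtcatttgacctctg

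Such a run was found at 31 of the 68 member genes (45.6%), against 21.2% of all 27025 genes in the promoter table and 23.9% of the 9051 other genes with a mean of at least 1 FPKM. The promoters held 250 bases before the start and 50 from the start base on, and both strands were searched. CCGGAA is the core of the site bound by Ets factors such as Gabpa. It was present in 52.9% of member genes and 32.7% of the other expressed genes. ATGGCG, the core of the Yy1 site, was present in 30.9% and 18.1%, and GGGCGG, the core of the Sp1 site, in 60.3% and 70.0%. TATAAA was present in 11.8% and 8.82%. None of these motifs contains another. Rps18 and Rps2 both had the pyrimidine run and CCGGAA, as many members did whose levels were alike in the groups. Rpl29 and Rps4l had no matching entry.

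The members were among the most abundant transcripts of the cells. With a mean of the groups of at least 1 FPKM as the limit, 84 members passed, and each of them exceeded 1 FPKM in both groups. Their median level was 1054 FPKM in Tet2 KO against 976 FPKM in WT, against 13.6 and 13.8 FPKM over all 11692 genes that passed. Of the 935 genes with a mean of at least 100 FPKM, 80 were members (8.56%). The 5 members under the limit were Rpl3l and Rpl10l, listed at 0 in both groups, Rpl39l, Rpl37rt with 0.226 and 0.477 FPKM, and Rpl32l with 0.0463 FPKM in Tet2 KO and listed at 0 in WT. The summed level of the 89 members was 88774 FPKM in Tet2 KO against 84938 FPKM in WT, a ratio of 1.05. That was 15.7% and 14.98% of the sum over all genes.

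The 5 most abundant members had similar levels in the groups. Rpl41, which encodes the smallest ribosomal protein, had 3061 FPKM in Tet2 KO against 2974 FPKM in WT. Rplp1, a protein of the stalk that recruits elongation factors, had 2943 and 2726 FPKM. Rps12 had 2821 and 2682 FPKM, and Rpl38, which in mouse embryos is needed for translation of a subset of Hox messenger RNAs, had 1924 and 1865 FPKM. The row of Rps27rt, named as a copy of Rps27, had 1943 and 1892 FPKM and is described with Rps27. The levels of the members were spread unevenly. Of the 77 members that passed and are neither paralogs nor proteins outside the mature ribosome, 61 lay between 500 and 2000 FPKM in WT and 64 in Tet2 KO, and 8 lay under 300 FPKM in each group. The lowest of the 77 were Rps27, which is described with its copy, and Rps15a, with 105 and 111 FPKM.

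**Figure D1:**
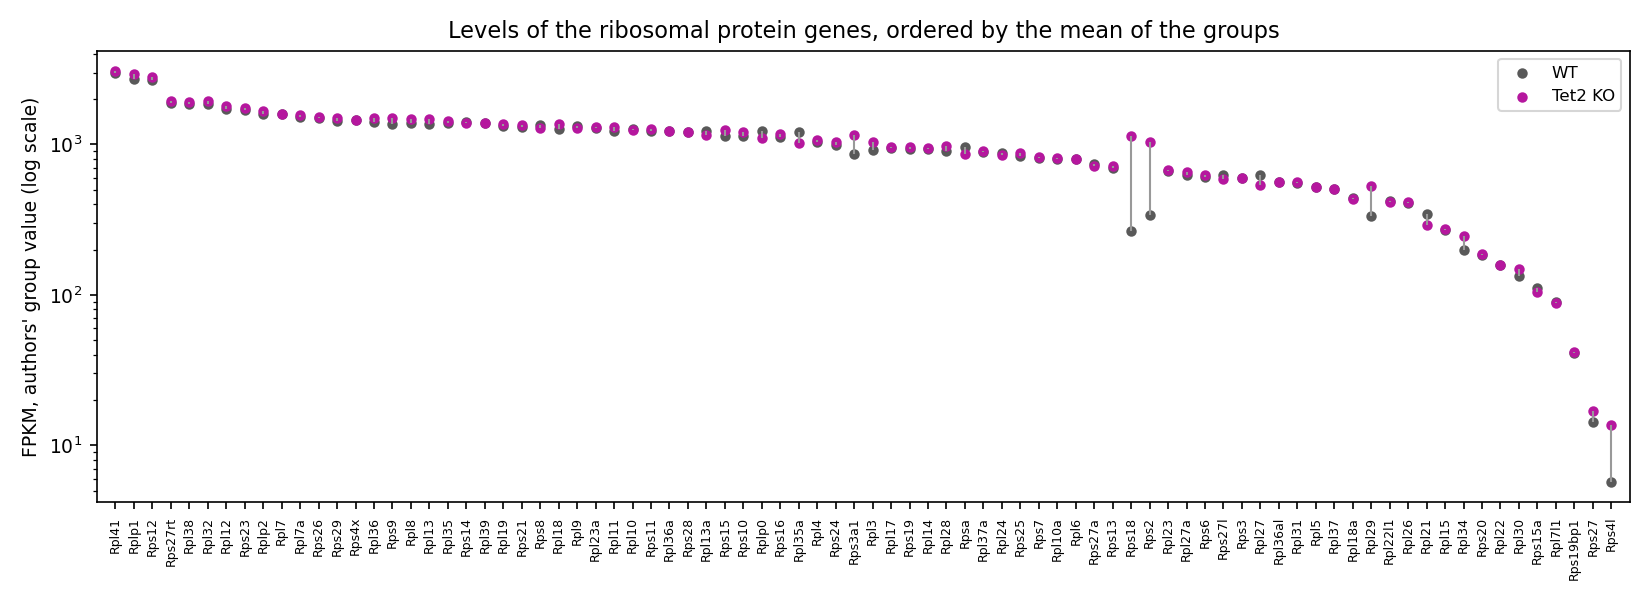
FPKM (log scale) of 82 of the 84 ribosomal protein genes with a mean of at least 1 FPKM, ordered by the mean of the groups, with 1 grey point for WT and 1 purple point for Tet2 KO per gene and a line joining them; each point is the authors' value for a group, so there are no error bars. Most pairs of points overlap, and Rps18 and Rps2 stand out, with WT points at 266 and 338 FPKM and Tet2 KO points at 1129.7 and 1041 FPKM.

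As a whole the family differed little between the groups. The median log2 ratio of Tet2 KO over WT, computed as log2((Tet2 KO FPKM + 1) / (WT FPKM + 1)), was 0.03 over the 84 members, beside -0.0044 over all genes that passed and 0.01 over the 935 abundant genes. The log2 ratio was above 0 for 62 members and below 0 for 22. Over all genes that passed it was above 0 for 5703 and below 0 for 5989. Among the 935 abundant genes it was above 0 for 518 and below 0 for 417. The levels of 70 of the 84 members (83.3%) were within 1.1-fold of each other, against 62.0% of all genes that passed and 75.8% of the abundant genes. Across the 84 members, which share libraries and scaling, the order of the levels was much alike in the groups, with a Spearman correlation of 0.97, or 0.99 without Rps18 and Rps2. The 4 members on the X chromosome, Rpl10, Rpl36a, Rpl39 and Rps4x, had log2 ratios between -0.0090 and 0.0054.

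The subunits had similar shares of members near equal levels. Within 1.1-fold were 29 of the 35 small subunit members (82.9%) and 41 of the 49 large subunit members that passed (83.7%). The 35 small subunit members had a median log2 ratio of 0.04 with a standard deviation over genes of 0.47, and 29 of them were above 0. The 49 large subunit members that passed had a median of 0.02 with a standard deviation of 0.13, and 33 were above 0. Over all 84 members the standard deviation was 0.32. It was 0.17 without Rps18 and Rps2, and 0.08 without these and Rpl29, Rps3a1, Rpl34 and Rps4l, whose values were seen before they were left out. These 6 members had the log2 ratios furthest from 0, so leaving them out narrows the spread by construction. Without these 6 members the standard deviation was 0.07 for the small and 0.09 for the large subunit. The 78 members that remained had log2 ratios between -0.24 and 0.21.

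**Figure D2:**
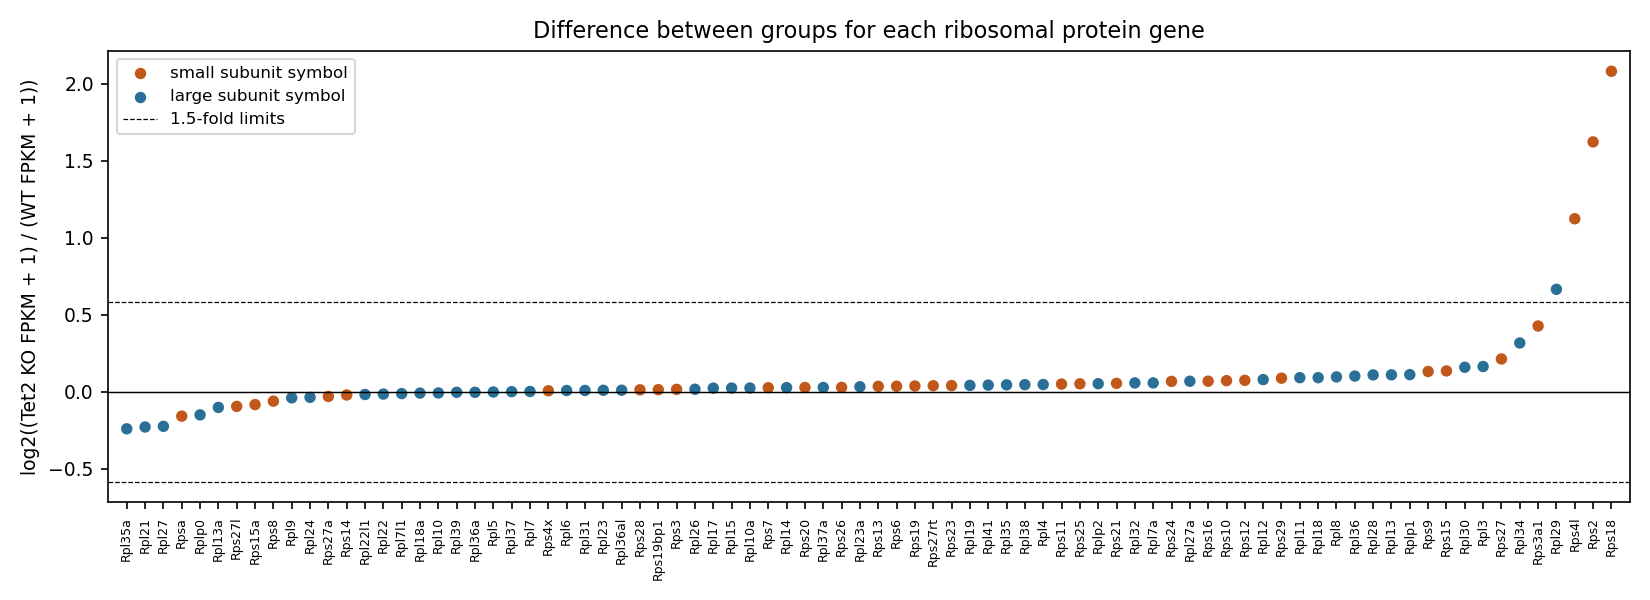
Log2((Tet2 KO FPKM + 1) / (WT FPKM + 1)) of 82 of the 84 ribosomal protein genes in rising order, orange for small and blue for large subunit symbols, with dashed lines at 1.5-fold; 1 point per gene, from the authors' group values. The points form a flat line near 0 from Rpl35a at -0.24 up to Rps27 at 0.21, and Rpl34, Rps3a1, Rpl29, Rps4l, Rps2 and Rps18 rise from it on the right.

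A difference of 1.5-fold was used as the limit for naming a member as different. Of the 84 members, 4 were higher in Tet2 KO past this limit, and 0 were lower. With no value per library there was no replicated test behind these counts. Among all 11692 genes that passed, 3.72% were higher and 2.89% lower past the same limit. Among the 935 genes with a mean of at least 100 FPKM the shares were 2.03% higher and 2.03% lower. The share of members that were higher, 4 of 84, was thus near that of all genes. Of the 19 abundant genes that were higher past the limit, 3 were members.

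Rps18 had the largest ratio. This protein lies in the head of the small subunit, near the sites at which transfer RNA is bound. Its level was 1129.7 FPKM in Tet2 KO against 266 FPKM in WT, a 4.24-fold difference and a log2 ratio of 2.08. Counted from the lowest of the 84 members, it held place 10 in WT and place 45 in Tet2 KO. The WT value was the low one for its kind, well under the median of the members, while the Tet2 KO value was close to that median. In mm9, the build of the deposited table, its interval on chromosome 17 is 34088944 to 34092586, and the gene is read from the minus strand.

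Rps2 followed. Together with Rps3 and the ribosomal part of Fau its protein lines the channel through which messenger RNA enters the small subunit. Its level was 1041 FPKM in Tet2 KO against 338 FPKM in WT, a 3.08-fold difference and a log2 ratio of 1.62. Its place from the lowest was 13 in WT and 42 in Tet2 KO. Rps3 had 599.9 and 594 FPKM, and Fau, which the rule on symbols did not take in, had 955 and 886 FPKM, so the neighbours of Rps2 at the entry channel had log2 ratios of 0.01 and 0.11. Rps2 lies on chromosome 17 of mm9 from 24857008 to 24858872 on the plus strand, on an interval it shares with the small nucleolar RNA gene Snora64, which was listed at 0 in both groups.

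Both genes lie on chromosome 17, at some distance from each other. The other 5 members there that passed had log2 ratios of -0.01 for Rpl7l1, 0.01 for Rps28, 0.02 for Rpl10a, 0.07 for Rps10 and 0.10 for Rpl36. The difference of these 2 genes together was 1567 FPKM, or 40.8% of the 3836 FPKM by which the summed levels of the members differed. Without them the ratio of the sums was 1.03 in place of 1.05.

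**Figure D3:**
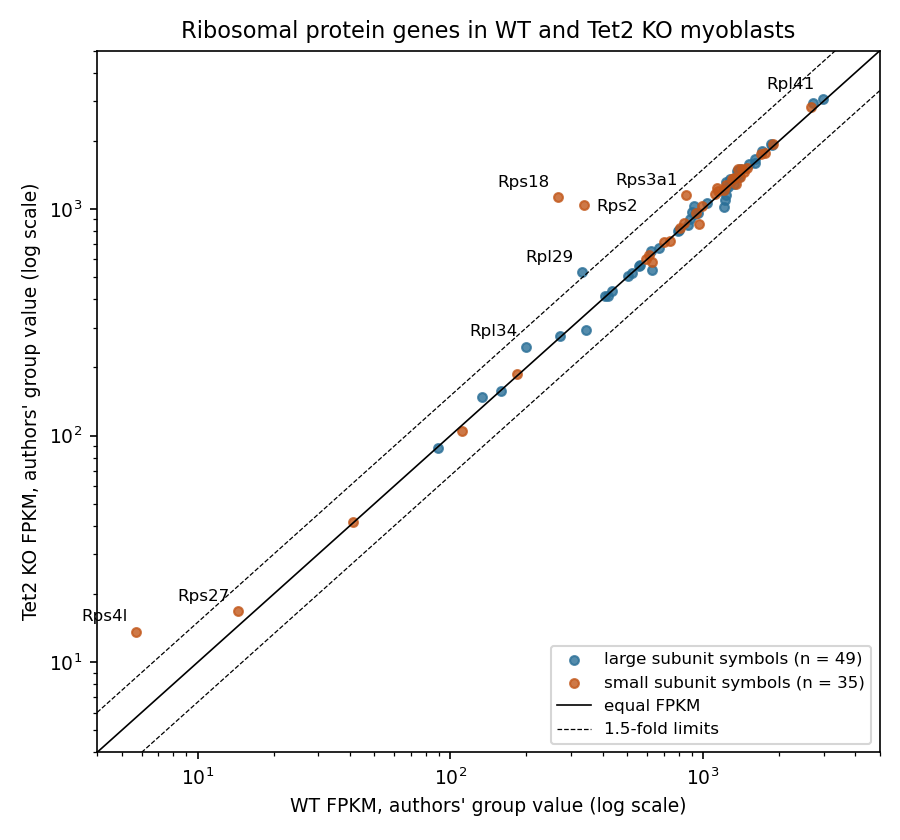
FPKM of the 84 ribosomal protein genes in WT (horizontal) and Tet2 KO (vertical), both on log scales, as the authors' group values with no error bars; the solid line marks equal levels and the dashed lines 1.5-fold. Nearly all genes lie on the solid line from about 41 FPKM upwards, and Rps18, Rps2, Rps4l and Rpl29 lie above the upper dashed line.

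The other members past the limit were Rpl29 and Rps4l. Rpl29, whose highly basic product is also described at the cell surface as a heparin-binding protein, had 527 FPKM in Tet2 KO against 332 FPKM in WT, a 1.59-fold difference and a log2 ratio of 0.66. Its place from the lowest was 17 in Tet2 KO and 12 in WT, so it was low in the family in both groups. It lies just beyond the limit, and the next member, Rps3a1, lies inside it. Rps4l, a gene like Rps4x on chromosome 6, had 13.7 FPKM in Tet2 KO against 5.73 FPKM in WT, a 2.38-fold difference and a log2 ratio of 1.12. The interval given for it runs from 147995938 to 148392874 and is shared with 4 other genes. Of these, Ergic2 had 26.4 and 27.3 FPKM and Far2 had 1.73 and 1.66 FPKM, so these did not share its difference. The others were low, Tmtc1 with 0.353 and 0.597 FPKM and 4732416N19Rik with 0.0520 FPKM in Tet2 KO and listed at 0 in WT.

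If 1 step of the FPKM values stands for 1 fragment, the WT values of Rps18, Rps2, Rpl29 and Rps4l correspond, over the annotated transcript, to about 8436, 19501, 12844 and 285 fragments. The Tet2 KO values then correspond to about 35148, 59069, 20017 and 668. That a step is 1 fragment was not checked against reads, and fragments shared with copies of a gene were not considered. The estimates also disregard that few fragments start near the end of a short transcript, and they say nothing about the spread between libraries.

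The next members, inside the limit, were Rps3a1 at 1.34-fold and Rpl34 at 1.25-fold. Rps3a1 had 1154 FPKM in Tet2 KO against 859 FPKM in WT, a log2 ratio of 0.43. Rpl34 had 247 and 199 FPKM, a log2 ratio of 0.32. They were followed by Rps27 at 0.21, Rpl3, one of the proteins at the peptidyl transferase centre, at 0.16 with 1031 and 921 FPKM, and Rpl30 at 0.16 with 148 and 133 FPKM. Rpl30 shares its interval with the row of a copy, Gm12191, which had the higher values of the pair.

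The lowest log2 ratios were of smaller size. Rpl35a, a gene mutated in some families with Diamond-Blackfan anaemia, had 1024 FPKM in Tet2 KO against 1211 FPKM in WT, a log2 ratio of -0.24. Rpl21 had 292 and 343 FPKM and a log2 ratio of -0.23, and Rpl27 had 539 and 630.0 FPKM and a log2 ratio of -0.23. Rpsa, which is also described as a laminin receptor, had 863 and 964 FPKM, a log2 ratio of -0.16. Rplp0, the base of the stalk, had 1099 and 1221 FPKM, a log2 ratio of -0.15. Each of these was within 1.2-fold.

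By their place in the ribosome, the groups of proteins showed no shared difference beyond Rps2 itself. In the stalk, Rplp0 was lower in Tet2 KO, as given above, while Rplp1 had a log2 ratio of 0.11 and Rplp2, with 1660 and 1602 FPKM, of 0.05. Rpl5 and Rpl11 bind the smallest ribosomal RNA of the large subunit and, when not built into ribosomes, the p53 inhibitor Mdm2. Rpl5 had 523 and 524 FPKM, and Rpl11 had 1311 and 1231 FPKM. The 8 proteins examined around the exit of the peptide tunnel (Rpl17, Rpl19, Rpl22, Rpl23a, Rpl26, Rpl31, Rpl35 and Rpl39) had log2 ratios between -0.02 and 0.04, the narrowest range of these groups.

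The ubiquitin fusion genes encode a ubiquitin joined to a ribosomal protein. Rps27a, the only member among them by its symbol, had 723 FPKM in Tet2 KO against 739 FPKM in WT. The values of Fau have been given above. Rack1, a scaffold protein on the small subunit that is also without a member symbol, had 1351 and 1315 FPKM. Among genes that are mutated in Diamond-Blackfan anaemia, a failure of red cell formation, Rps7, Rps10, Rps19, Rps24, Rps26, Rpl5 and Rpl11 had log2 ratios between -0.0027 and 0.09, and Rpl35a stood lower, as given above.

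Several members are paralogs, second genes for 1 ribosomal protein. Rpl3l, which replaces Rpl3 in ribosomes of mature skeletal and heart muscle, was listed at 0 FPKM in both groups. Over the annotated transcript used here, of 1039 bases with 723 coding bases, a count of 0 allows up to 0.0557 FPKM in Tet2 KO against 0.0547 FPKM in WT. This takes 3 fragments as the upper limit and counting error alone. The transcript length behind the deposited values is not given in the sources used here. On chromosome 17 the interval of Rpl3l is separated from that of Rps2 by 5901 bases. Rpl10l, a retrogene of Rpl10 used in the male germline, was also listed at 0, with a limit of 0.0567 and 0.0557 FPKM. Rpl39l had 0.447 and 0.616 FPKM, which was 0.0322% and 0.0442% of the sum with Rpl39.

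Other paralogs were expressed, and apart from Rps4l their share differed little between the groups. Rpl22l1 had 415 FPKM in Tet2 KO against 420.0 FPKM in WT, while Rpl22 had 157 and 159 FPKM, so the paralog made up 72.5% and 72.6% of the pair. Rpl36al, an autosomal copy of the X-linked Rpl36a, made up 31.7% and 31.5% of its pair, with 566 and 562 FPKM. Rpl7l1, which acts in the assembly of the large subunit, had 88.5 and 89.3 FPKM, or 5.24% and 5.29% of the sum with Rpl7. Rps27l, a gene induced by p53, had 587 and 628 FPKM, or 23.2% and 24.9% of the sum with Rps27rt. Rps4l made up 0.93% and 0.39% of the sum with Rps4x, the largest relative difference among the paralogs that passed. Rps19bp1, which encodes a protein that binds Rps19 and not a subunit, had 41.6 and 41.2 FPKM.

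The values of 36 members stand on an interval that the table gives to at least 1 more row, for most of them small nucleolar RNA genes within their introns. For 4 members, Rps27, Rpl34, Rpl26 and Rpl30, the other row is named as a copy or pseudogene of the member or is annotated at a near-identical copy elsewhere in the genome, and the rows of a pair cannot be told apart by their position. Rps27 had only 16.8 FPKM in Tet2 KO against 14.4 FPKM in WT, while Rps27rt had the 1943 and 1892 FPKM given above on the same interval of chromosome 3, from 90016589 to 90017570. In the GENCODE vM1 annotation of the same build Gm9846, an older name of Rps27rt, lies on chromosome 9 from 114891515 to 114891858. Summed, the pair had 1959.9 and 1907 FPKM, a log2 ratio of 0.04.

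Rpl34 shares its interval on chromosome 3, from 130429745 to 130433316, with Rpl34-ps1, a row that the rule left out as a pseudogene. Rpl34-ps1 had 939 FPKM in Tet2 KO against 0.335 FPKM in WT, the largest log2 ratio of all genes that passed, at 9.46. The annotation places Rpl34-ps1 elsewhere, as a pseudogene on chromosome 6 from 71074583 to 71074994, and the copy found there was 99.4% identical to the coding sequence of Rpl34. Summed over the shared interval, the pair had 1187 FPKM in Tet2 KO against 199 FPKM in WT, a 5.96-fold difference. The summed Tet2 KO level was close to the median of the members, and the WT level was far below it, as for Rps18. The other 6 rows marked as pseudogenes by their symbol had at most 4.98 FPKM in either group, Rps19-ps3 being the highest with 3.67 and 4.98 FPKM.

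Rpl26 and Rpl30 had the lower value on intervals that each share with a predicted gene. Whether the values of the predicted genes come from these intervals was not tested. Gm15772, on the interval of Rpl26, had 1430 FPKM in Tet2 KO against 1403 FPKM in WT, beside 413 and 409 FPKM for Rpl26. Summed, these rows had 1843 and 1812 FPKM, a log2 ratio of 0.02. The annotation places Gm15772 as a pseudogene on chromosome 5 from 3236389 to 3236907, where the copy was 99.5% identical to the coding sequence of Rpl26. Gm12191, on the interval of Rpl30, had 924 FPKM in Tet2 KO against 708 FPKM in WT. With Rpl30 the sum was 1072 and 841 FPKM, a log2 ratio of 0.35 or a 1.27-fold difference, larger than that of the Rpl30 row alone. The annotation places Gm12191 as a pseudogene on chromosome 11 from 49492212 to 49492559, with a copy 99.7% identical to Rpl30. With the 4 pairs summed, the count of members past the limit was 5, Rpl34 being the one added.

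**Figure D4:**
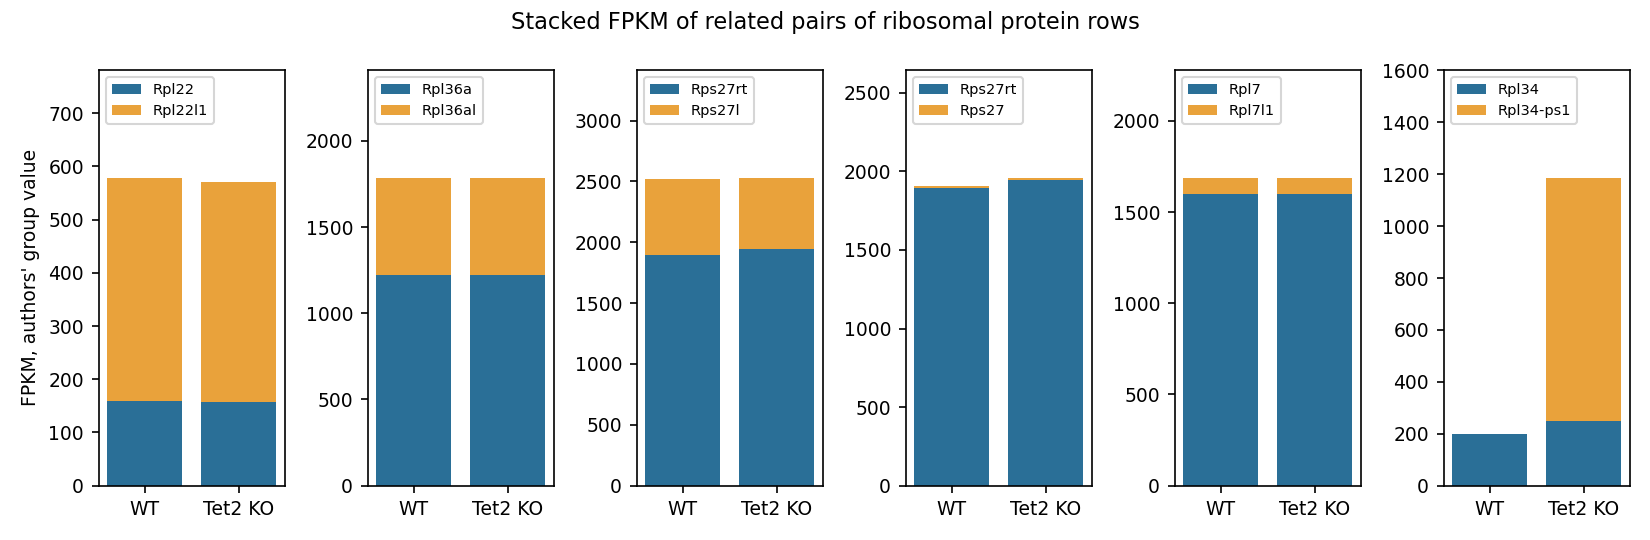
Stacked FPKM of 6 pairs of related rows in WT and Tet2 KO, each panel on its own axis from 0, blue for the main gene of the pair and yellow for the paralog, copy or pseudogene row; bars are the authors' group values, without error bars. In 5 panels the stacks of the groups are nearly equal in height and division, and in the sixth Rpl34-ps1 adds 939 FPKM to Rpl34 in Tet2 KO only.

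Copies of the members were sought in mm9 by matching their coding sequences, taking matches of at least 95% identity over at least 90% of the sequence. Of the 85 members with an annotated coding sequence, 77 had at least 1 copy, and the median was 5 copies. Rpl21 had the most, with 55. In all 582 copies were found, 287 of them in annotated pseudogenes. For 168 of the 582, an annotated gene at the position had a symbol that also names a row of the table. Such a gene can merely span the copy, and the positions of the rows themselves were not compared. A copy of at least 99% identity existed for 58 members. How reads that match a member and its copies were assigned is not given in the sources used here, so each level is uncertain to that degree.

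Of the members past the limit, Rps18 had 5 copies, Rps2 25 and Rpl29 28, with best identities of 99.3%, 99.4% and 99.4%. Copies at an annotated gene whose symbol also names a row of the table numbered 0 for Rps18, 8 for Rps2 and 13 for Rpl29. The match was by symbol, so these rows need not measure the copies. Rps3a1 had 7 copies and Rpl34 had 5. Rps4l had 0. Rpl29 and Rps2 thus had the most copies after Rpl21 and Rpl7a, which had 31, while Rps18 was at the median. The log2 ratios of Rpl21 and Rpl7a were -0.23 and 0.06. The 40 members that passed with 6 or more copies had a median log2 ratio of 0.03, the 36 with 1 to 5 copies of 0.03 and the 6 with no copy of 0.03. Of these last 6, Rps4l had the log2 ratio of 1.12 given above, and the others lay between -0.10 for Rps27l and 0.10 for Rpl8. Over the 82 members with a coding sequence that passed, the Spearman correlation of the number of copies with the size of the log2 ratio was 0.15, and that of the coding length with the log2 ratio was -0.0052, both across genes that are not independent.

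Other genes of translation differed as little as most members. The 78 mitochondrial ribosomal proteins, which serve the separate ribosomes of the mitochondria, had a median level of 48.1 FPKM in Tet2 KO against 46.7 FPKM in WT and a median log2 ratio of 0.03. Of these 78, 1 was past the limit, Mrps12, with 63.3 and 32.1 FPKM and a log2 ratio of 0.96. The most abundant were Mrpl52, with 263 and 267 FPKM, and Mrpl12, with 228 and 211 FPKM. The 14 other transcripts examined that are known for a pyrimidine start, among them Eef1a1 with 3769 and 3642 FPKM and Npm1 with 1356 and 1319 FPKM, had a median log2 ratio of 0.04. The largest among them was 0.24, for the poly(A)-binding protein gene Pabpc1. The 27 initiation, elongation and termination factors had a median of 0.03 and lay between -0.14 and 0.15, with Eif4a1 at 922 and 907 FPKM and Eif5a at 579 and 531 FPKM.

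Genes of ribosome assembly stood slightly higher in Tet2 KO. Of the 40 examined, 36 had a log2 ratio above 0, the median was 0.06 and 0 were past the limit in either direction. The highest ratio was that of Grwd1, at 0.23, and the most abundant genes were Nop56, with 219.97 and 205 FPKM, and Emg1, with 179 and 171 FPKM. The 15 regulators of ribosomal protein genes and their translation had a median log2 ratio of 0.05, with 11 above 0, 4 below 0 and 0 past the limit. The lowest was Rps6kb2, with 8.83 and 10.6 FPKM and a log2 ratio of -0.24, and the highest was Myc. Myc had 16.2 and 13.6 FPKM and a log2 ratio of 0.23, Mtor 14.0 and 14.9 FPKM, Larp1, which binds pyrimidine starts, 37.7 and 36.3 FPKM, and Gabpa 39.5 and 37.8 FPKM. Eif4ebp1 and Larp4 were the most abundant, with 123 and 121 FPKM for the first and a log2 ratio of 0.0033 for the second. The 8 genes of ribosome rescue examined, with Abce1 at 144 and 146 FPKM and Hbs1l at 49.2 and 50.8 FPKM, had a median of 0.04.

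The p53 pathway responds to unused ribosomal proteins. Trp53 had 58.9 FPKM in Tet2 KO against 57.0 FPKM in WT, and Mdm2 had 70.5 FPKM in each. The 8 genes of this list had a median log2 ratio of -0.11, and 0 were past the limit. Cdkn1a, a cell cycle inhibitor and p53 target that also rises in muscle differentiation, had the lowest, -0.56, with 36.2 and 53.7 FPKM. Bax had 159 and 155 FPKM, and Ccng1 had 114 and 137 FPKM.

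**Figure D5:**
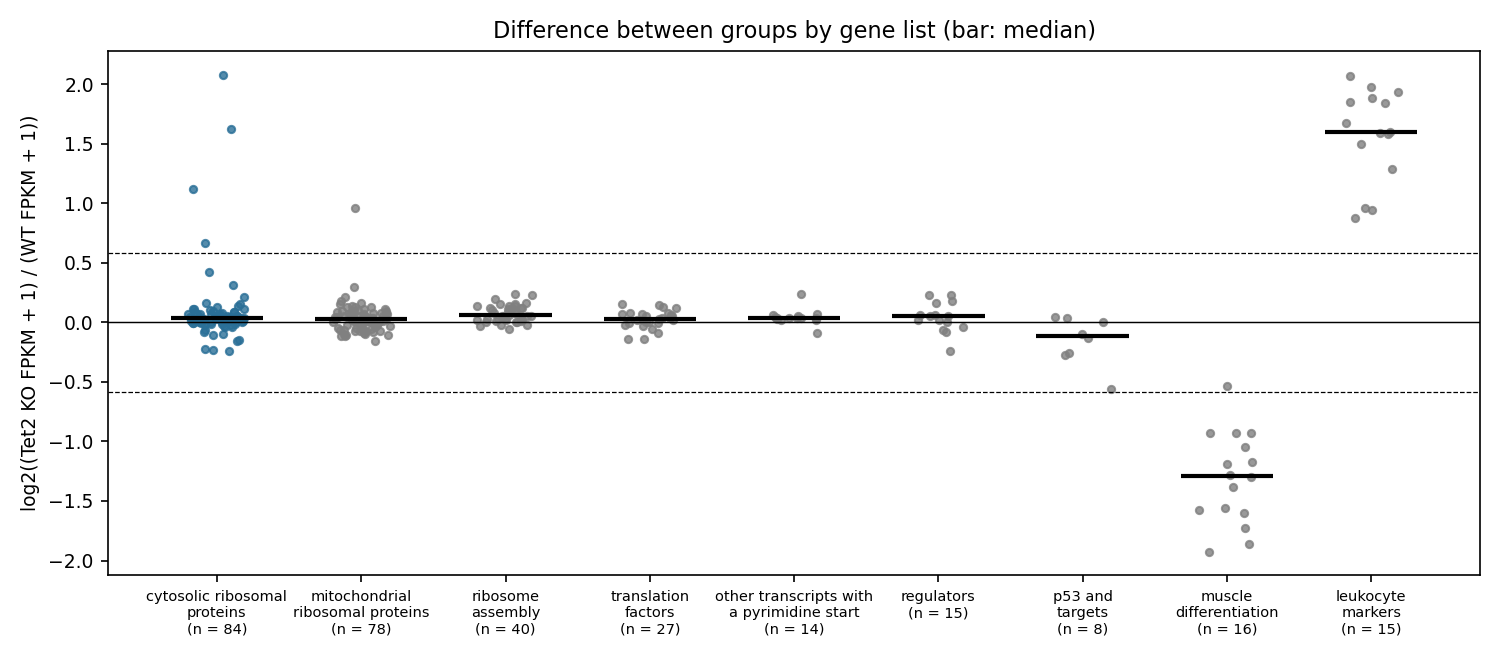
Log2((Tet2 KO FPKM + 1) / (WT FPKM + 1)) of single genes by list, blue for the cytosolic ribosomal proteins and grey for the other lists, with black bars at the medians, dashed lines at 1.5-fold and the number of genes with a mean of at least 1 FPKM under each list. The lists of translation lie near 0 with medians between 0.03 and 0.06, while muscle differentiation lies at a median of -1.29 and the leukocyte markers at 1.60.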

How the data were processed

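RNA-seq of 4 libraries of primary myoblasts, 2 WT and 2 Tet2 KO, was analysed. Per the study's methods and the submitters' processing notes, the authors trimmed adapters, removed low-quality reads, aligned read pairs to mm9 with TopHat2 2.0.13 and estimated FPKM with Cuffdiff 2.2.1. The gene annotation used is not given in the sources used here. The deposited table held 1 FPKM value per gene and group. Its columns of the authors' own comparison (log2 ratio, test statistic, p-value, q-value) were not used, and with 1 value per group no test was run.

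Ratios were computed with a pseudocount of 1, which understates differences of low genes, over genes with a mean of at least 1 FPKM, and 1.5-fold was the limit for naming a difference. Members named were the 5 highest and 5 lowest by mean FPKM, the 5 most positive and 5 most negative log2 ratios, and the members of the role and paralog lists. From the other lists the genes past the limit and the 2 most abundant were named. Other genes were added after their values were seen, among them Rpl34, Rps27, Gm15772, Gm12191, Myc, Rps6kb2, Grwd1 and Pabpc1. Members and lists were chosen with earlier results of these data known. Coordinates count from 1.

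The worth of 1 fragment was read from genes with 1 annotated transcript of at least 2000 bases. Of their values under 5.5 steps, 83.6% in Tet2 KO and 83.5% in WT lay within 0.15 of a whole number of steps. Copies were sought with BLAST+ 2.17.0 in mm9 with GENCODE vM1. The scripts ran under Python 3.11.15 with pandas 2.3.3, numpy 2.4.6 and matplotlib 3.10.9, and the ratio was tested on simulated data. Alternatives were other pseudocounts, filters, scalings, fold limits and member sets. Values of a few single genes are not reported here.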

Additional observations from a re-analysis of the deposited data

How the results depend on the processing

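No paired analysis was possible because each group had only 1 value per gene, which also left no library to leave out. Log2 ratios, their medians and standard deviations, and the ratio of the sums were taken as moved when they changed by 0.1. A share of a pair was taken as moved at 1 percentage point, and a count at more than 1.5 times. These limits were used since no spread between libraries was at hand. Of 70 values over the members under the alternatives, 65 kept their value in this sense. Apart from 1 large subunit median given below, the medians lay between 0.01 and 0.04. The ratio of the sums lay between 1.03 and 1.06. A limit of 0.1 could hardly show a move in these. With only the members without a near-identical copy, the large subunit median, then that of Rpl8 alone, was 0.095 in place of 0.02. When only the 6 members that passed and had no near-identical copy were kept, 1 member, Rps4l, was past 1.5-fold in place of 4, and the standard deviation of the log2 ratios was 0.46 in place of 0.32. Without Rps18 and Rps2, an alternative chosen after the values were seen, 2 members were past the limit and the standard deviation was 0.17. With rows on a shared interval summed, also chosen afterwards, 5 were past it and the standard deviation was 0.43. A limit of 1.2-fold gave 6 members higher and 0 lower, and 2-fold gave 3 and 0. Of 86 values of single members and pairs, 84 kept their value, and the log2 ratio of Rps4l was 1.24 with a pseudocount of 0.1 and 1.25 without any, in place of 1.12. Rescaling to a common sum or centring on the median of all genes moved none of the values recomputed, and could hardly have done so. The centring shift was -0.0044, and the summed FPKM of all genes was 565529 in Tet2 KO and 566910 in WT. Shares of pairs cannot change with rescaling, nor the standard deviation with centring, and both were among the values counted. The absence of values per library limits every comparison.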
